A study of Mus musculus with 6 samples.

Results

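The genes described are 32 targets and regulators of the transcription factor p53, chosen by gene symbol from what is known of the pathway, among 30777 genes measured in mouse colon. The list was drawn up with earlier results of these data known, so it is not independent of them. All 32 were found in the expression table and all 32 passed the filter on low counts that left 20101 genes for testing. Colon tissue came from BALB/c mice, an inbred laboratory strain. In the first group of 3 libraries the mice had received the chemotherapy drug 5-fluorouracil (5-Fu), which resembles the pyrimidine uracil, and in the second group of 3 they had received 5-fluorouracil together with berberine (5-Fu+BBR), a plant alkaloid. Both groups therefore carried 5-fluorouracil, and untreated or berberine-only colon was not analysed here, so the values show how the groups differed and not how far 5-fluorouracil itself moved a gene. The series was set up to find genes associated with berberine in the treated colon. Dose, time of sampling, age and whether the 3 samples of a group were separate animals are not given in the sources used here, and the p-values then measure only the spread between these samples, which may be technical.

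The p53 protein is held low in unstressed cells by the ubiquitin ligase MDM2 and its partner MDM4. Damage to DNA or to nucleotide and ribosomal RNA metabolism, both of which 5-fluorouracil causes, frees p53 to bind DNA and switch on genes that stop the cell cycle, repair DNA, supply nucleotides or start cell death. MDM2 is itself a p53 target, which closes a feedback loop. In the intestine the response to such drugs is strongest in the dividing cells of the crypts. p53 is mainly controlled as a protein, so the amount of its mRNA is a weak guide to its activity, and the mRNA of its targets is the usual readout.

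p53 binds DNA as a tetramer at paired decamers. The sequences below are shown because they hold matches to the p53 decamer (the half-site of the consensus) in front of members described in this report. They are RefSeq promoter stretches of build GRCm38.p6, written 5′ to 3′ on the strand of the gene, with the match or the adjoining pair in capitals. Cdkn1a (chr17:29090908-29090967, plus strand), Ccng1 (chr11:40755442-40755501, minus strand) and Ckap2 (chr8:22185983-22186042, minus strand) each hold an adjoining pair, and Trp53 (chr11:69580264-69580313, plus strand) and Mdm2 (chr10:117710915-117710964, minus strand) hold a single decamer.
Cdkn1a: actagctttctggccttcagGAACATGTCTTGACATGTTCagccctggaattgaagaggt
Ccng1: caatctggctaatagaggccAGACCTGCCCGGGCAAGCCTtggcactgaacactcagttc
Ckap2: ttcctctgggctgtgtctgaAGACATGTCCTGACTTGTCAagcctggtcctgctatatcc
Trp53: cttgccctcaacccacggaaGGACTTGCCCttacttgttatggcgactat
Mdm2: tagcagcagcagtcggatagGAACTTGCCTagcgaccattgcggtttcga

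The Cdkn1a pair began 51 bases before the first RefSeq start of that gene, the Ccng1 pair 195 bases and the Ckap2 pair 203 bases before theirs. The other RefSeq start of Cdkn1a lay 2790 bases further downstream, and the window around it held no match. The decamer of Trp53 began 75 bases and that of Mdm2 186 bases before the start. Promoter windows, 250 bases before to 50 bases after a RefSeq start, were held for 25 of the 32 members, in 36 windows. A decamer matching the consensus at every position, read on both strands, was found in 12 of the 36 windows (33.3%), against 2745 of all 32851 windows (8.36%). Pairs of adjoining decamers with up to 2 mismatches outside the core C and G, a search chosen after these windows had been seen, were found in 4 member windows (11.1%) and in 107 of all windows (0.326%). Cdkn1a, Ccng1 and Gtse1 had 1 mismatch in such a pair and Ckap2 had 2. The members were chosen as p53 targets, so these shares describe the choice. A match to these letters is not evidence of binding in this tissue, and a window without one says nothing about sites elsewhere in the gene.

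Library totals of the deposited estimated counts ranged from 53824752 to 63831168, and CPM denotes counts brought to a common library size. The tissue label held: all 10 colon epithelium markers were detected in every library, and their summed level ranged from 15318 to 20885 CPM in 5-Fu and from 15697 to 19388 CPM in 5-Fu+BBR. Markers of several other cell types differed between the groups. The counts below at an unadjusted p under 0.05 stand beside 9.48% of all genes tested higher and 6.08% lower. The summed level of 8 smooth muscle genes was 2300.3 to 3017 CPM in 5-Fu and 4243 to 4825 CPM in 5-Fu+BBR, with 6 of 8 higher at an unadjusted p under 0.05. For T and NK cells the sums were 23.4 to 32 CPM against 53.6 to 82.9 CPM, with 8 of 8 genes higher by the same measure, and for B and plasma cells 1431 to 2698 CPM against 3109.8 to 6792 CPM, with 7 of 8 higher. Adipocyte genes summed to 74.8 to 99.4 CPM against 166 to 251 CPM, with 7 of 8 higher and 1 to 4 of the 8 at 0 in the 5-Fu libraries, among them Lep in all of these. Macrophage and monocyte genes had 3 of 8 higher and 1 lower, neutrophil genes 2 of 8 lower and enteric neuron and glia genes 1 of 8 lower. Sums for macrophages and monocytes were 420.3 to 541 CPM against 628 to 812 CPM, of which most was Lyz2, at 262 to 358 CPM against 447 to 577 CPM. The log2 fold change, 5-Fu+BBR minus 5-Fu, was positive for 6 of these 8 genes and negative for 2, with a median of 0.30. For neutrophils the sums overlapped, at 299 to 488 CPM against 249.6 to 399 CPM, but most of each was Ly6g, at 244 to 436 CPM against 245 to 377 CPM. The median log2 fold change of the 8 was -2.07, with 6 negative and 2 positive. The spread was wide: S100a8 was at 35.8, 32.7 and 2.7 CPM against 9.2, 0.253 and 0.144 CPM in replicates 1 to 3. For enteric neurons and glia the sums were 35.3 to 36.9 CPM against 21.7 to 31.2 CPM. The largest part of each was Ret, the 1 gene lower, at 15.6 to 22 CPM against 7.2 to 13.4 CPM. Over the 8 the median was 0.10, with 5 above 0 and 3 below, so the lower sums do not describe the list as a whole. 5-Fu+BBR replicates 2 and 3 stood apart by kidney tubule genes, whose sum was 178 and 172 CPM there and 18.6 to 20.9 CPM in the other 4 libraries. The part of these tissue differences in the results on p53 targets was not tested, and in bulk tissue fewer cells of a type and less RNA per cell cannot be told apart.

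**Figure D1:**
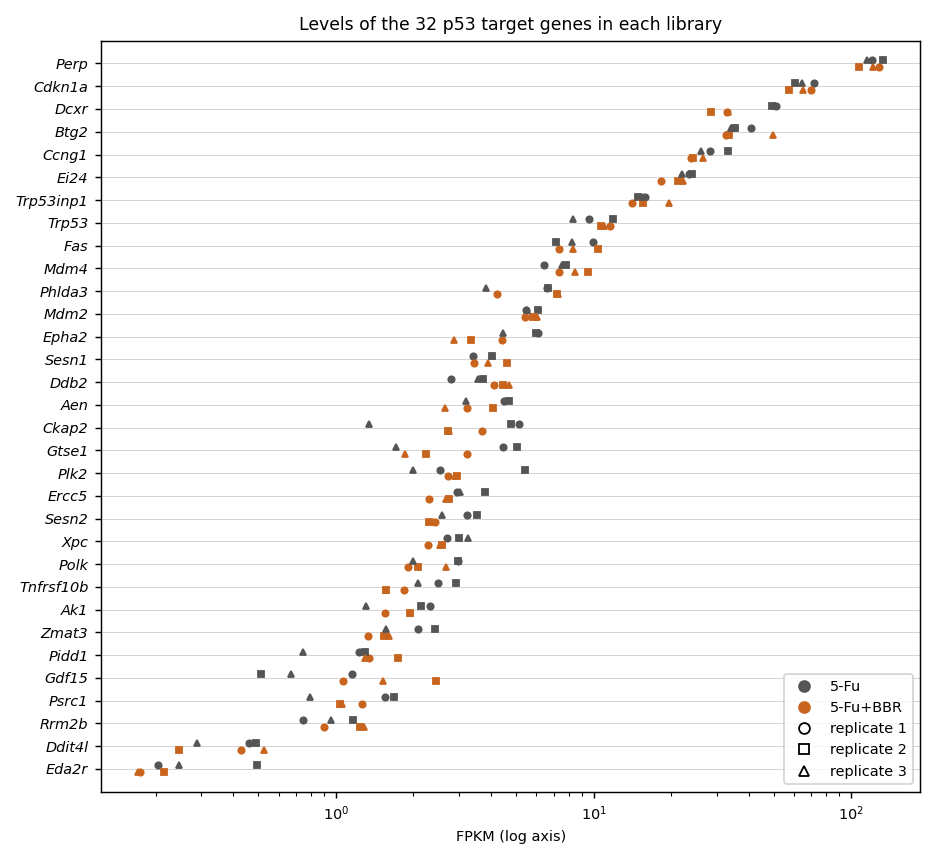
FPKM of each of the 32 genes (rows, ordered by mean level) in each of the 6 libraries, on a log axis; colour gives the group and shape the replicate number. Perp is highest at a mean of 121 FPKM and Eda2r lowest at 0.25 FPKM, and for most genes the colours overlap.

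Levels of different genes were compared as FPKM, which scales fragments to transcript length. Perp, which encodes a desmosomal protein of epithelia, had the highest mean over the 6 libraries at 121 FPKM. Cdkn1a, the cyclin-dependent kinase inhibitor p21, followed at 64.8 FPKM, then Dcxr at 41 FPKM, the antiproliferative gene Btg2 at 37.7 FPKM and Ccng1 at 27.1 FPKM. Each library gave Perp between 107 and 133 FPKM and Cdkn1a between 57.3 and 71.4 FPKM, so these 2 did not overlap in level. Dcxr (28.6 to 50.9 FPKM) and Btg2 (32.7 to 49.5 FPKM) did overlap. At the other end were Ddit4l at 0.406 FPKM and Eda2r at 0.25 FPKM. Ddit4l is a relative of the stress-induced mTORC1 inhibitor Ddit4, and Eda2r is a receptor gene grouped here with the death receptors. As the plot of levels by gene shows, the spread between genes was far wider than the difference between groups for any of them.

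No member passed the threshold of an adjusted p under 0.05 in edgeR's quasi-likelihood test, where 15 of 20101 genes (0.0746%) did, 12 of them higher (0.0597%) and 3 lower (0.0149%). At an unadjusted p under 0.05, 6 members were lower in 5-Fu+BBR (18.8% of 32, against 6.08% of all genes tested) and 1 was higher (3.12%, against 9.48%). The 6 lower were Dcxr, Epha2, Tnfrsf10b, Zmat3, Ercc5 and Sesn2, and the 1 higher was Gdf15. With DESeq2 3 members passed the adjusted threshold, with limma-voom and with limma-trend on FPKM 0 did. The 3 were Dcxr, Tnfrsf10b and Epha2, each lower, in a fit that called 1227 of 20101 genes, 880 higher and 347 lower. The log2 fold change, 5-Fu+BBR minus 5-Fu, was negative for 20 members and positive for 12, with a median of -0.13, against 0.01 over all genes tested. Because the list was drawn up with earlier results of these data known, these shares and those that follow describe it and do not test it.

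The 3 libraries of 5-Fu+BBR lay wholly below the 3 of 5-Fu for 9 members (28.1%, against 9.68% of all genes tested) and wholly above for 2 (6.25%, against 12.3%). On the FPKM scale 6 of the 9 (Dcxr, Epha2, Ercc5, Sesn2, Tnfrsf10b and Xpc) and 1 of the 2 (Ddb2) did not overlap, against 8.47% and 11.5% of all genes. No library was the outlying one for most members: the lowest value of the 6 fell in each library for 3 to 8 members and the highest for 3 to 9. Kidney genes set 5-Fu+BBR replicates 2 and 3 apart, and in a fit of 5-Fu+BBR replicate 1 alone against 5-Fu, where the lone library is assumed to vary like the others, the median was -0.16. Of the 7 members named above only Dcxr had an unadjusted p under 0.05 there, in a fit where the share of all genes at that level was also smaller (2.55% lower and 3.56% higher). The log2 fold changes with that library alone were -0.58 for Dcxr, -0.56 for Zmat3, -0.46 for Ercc5, -0.40 for Tnfrsf10b, -0.32 for Sesn2, -0.28 for Epha2 and 0.49 for Gdf15, each in the direction of the full comparison. In the plot of differences by role, the intervals of 7 members leave out 0.

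**Figure D2:**
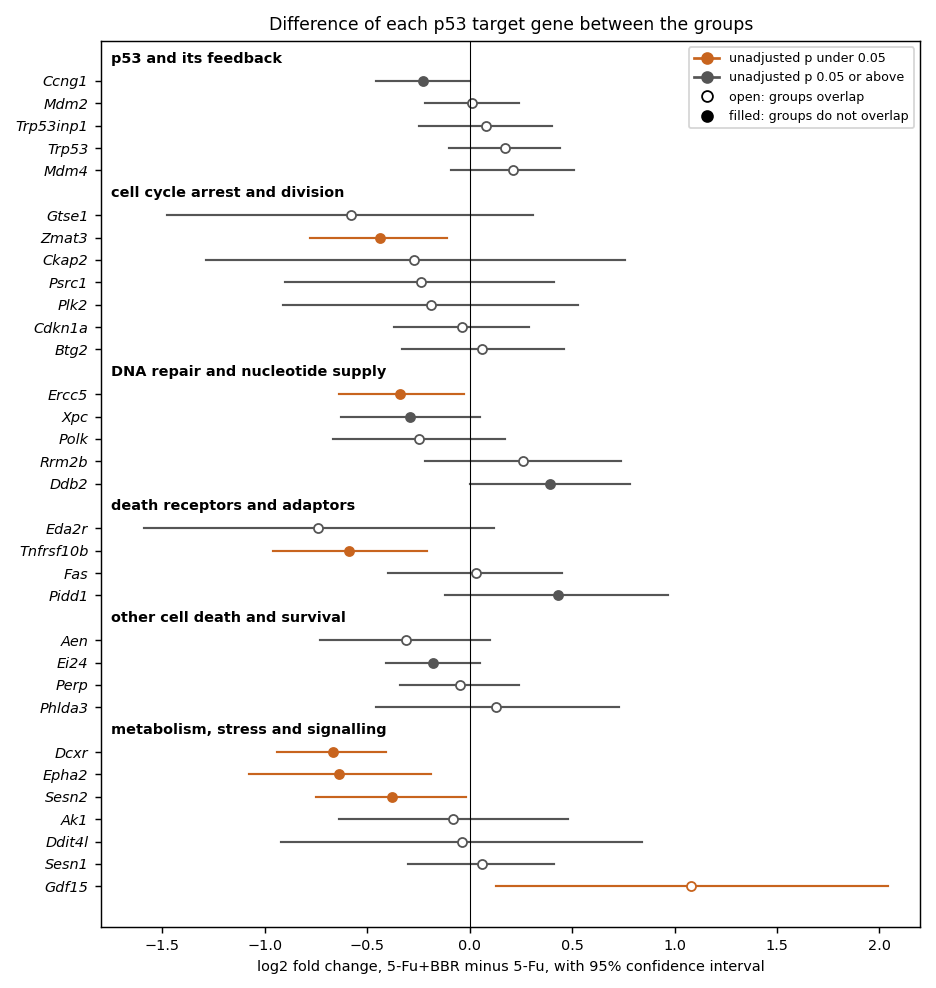
log2 fold change of each of the 32 genes, 5-Fu+BBR minus 5-Fu, with its 95% confidence interval from edgeR, grouped by role; orange marks an unadjusted p under 0.05 and filled points mark groups that do not overlap. The points run from -0.74 for Eda2r to 1.08 for Gdf15, and 20 of 32 lie left of 0.

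For the p53 gene and its feedback circuit, 5 genes, the log2 fold changes ran from -0.23 to 0.21, and 0 had an unadjusted p under 0.05 in edgeR. Trp53 (chromosome 11, 69580359 to 69591873), the gene of p53 itself, had levels of 45.8, 53.9 and 43.2 CPM with 5-Fu and 57.9, 50.2 and 52.5 CPM with 5-Fu+BBR, here and below in the order of replicates 1 to 3. The groups overlapped, with 5-Fu replicate 2 above 2 of the 5-Fu+BBR libraries, and the log2 fold change was 0.17 ± 0.12 (SE; edgeR adjusted p 0.543). Its pseudogene Trp53-ps, with which it could share reads, had a mean of 67.5 counts against 2910.5 for Trp53. Mdm2 (chromosome 10, 117688875 to 117710758), the ubiquitin ligase that removes p53, was at 32.8, 34.6 and 35.9 CPM in 5-Fu and at 34.1, 34.1 and 36 CPM in 5-Fu+BBR. All 6 libraries thus lay within a narrow band, and the ratio of 5-Fu+BBR to 5-Fu was 1.01 with a 95% interval from 0.859 to 1.18.

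Ccng1 (chromosome 11, 40748552 to 40755311) encodes cyclin G1, a p53 target that acts on MDM2 through a phosphatase. Its levels were 117, 129.9 and 118 CPM in 5-Fu and 103, 98.9 and 110.0 CPM in 5-Fu+BBR. In CPM every 5-Fu+BBR library lay below every 5-Fu library, by a small margin, and the log2 fold change was -0.23 ± 0.10 (edgeR adjusted p 0.331). In FPKM the groups overlapped, with 5-Fu+BBR replicate 3 at 26.7 and 5-Fu replicate 3 at 26.2. For Mdm4, the MDM2 partner, and Trp53inp1, a p53-induced regulator of autophagy and cell death, the groups overlapped. Their log2 fold changes were 0.21 ± 0.13 and 0.08 ± 0.14.

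Cdkn1a (chromosome 17, 29090976 to 29100727), whose product p21 halts the cell cycle, was at 299, 239.8 and 294 CPM in 5-Fu and at 304, 235 and 272 CPM in 5-Fu+BBR. The lowest library of each group was its replicate 2 and the groups overlapped almost fully. The ratio of 5-Fu+BBR to 5-Fu was 0.974, with a 95% interval from 0.774 to 1.23. Zmat3 (chromosome 3, 32334792 to 32366014), an RNA-binding zinc finger gene, differed more. It was at 28.2, 31 and 23 CPM in 5-Fu and at 18.7, 20.2 and 21.6 CPM in 5-Fu+BBR. The groups did not overlap on this scale, although 5-Fu replicate 3 came close to 5-Fu+BBR replicate 3, and the log2 fold change was -0.44 ± 0.15 (edgeR adjusted p 0.223). Btg2 and the polo-like kinase gene Plk2 had overlapping groups, with log2 fold changes of 0.06 ± 0.17 and -0.19 ± 0.31. For Plk2 a single library, 5-Fu replicate 2 at 27.3 CPM, stood above the other 5, which ranged from 11.5 to 15.3 CPM, and without it the log2 fold change was 0.29.

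Gtse1, Psrc1 and Ckap2 act on microtubules and the mitotic spindle and are expressed mainly in dividing cells. Ckap2 was at 19.5, 17.1 and 5.58 CPM in 5-Fu and at 14.6, 10.1 and 10.4 CPM in 5-Fu+BBR. Gtse1 was at 14.4, 15.5 and 6.01 CPM against 11, 7.05 and 5.97 CPM, and Psrc1 at 6.23, 6.39 and 3.51 CPM against 5.26, 4.11 and 4.26 CPM. In all 3 genes 5-Fu replicate 3 lay far below the other 5-Fu libraries. The log2 fold changes were -0.27 ± 0.43, -0.58 ± 0.38 and -0.24 ± 0.28, none with an unadjusted p under 0.05. The summed level of 16 proliferation genes followed the same pattern, at 1027, 927 and 537 CPM in 5-Fu and 846, 767 and 629 CPM in 5-Fu+BBR, and 0 of the 16 had an unadjusted p under 0.05 in edgeR. Without 5-Fu replicate 3 the log2 fold changes of Ckap2 and Gtse1 were -0.64 and -0.90, both at an unadjusted p under 0.05. Without 5-Fu replicate 1 instead they were 0.04 and -0.43, so the call and, for Ckap2, the sign depended on which 5-Fu library was left out. The part of cell division in these differences was not tested.

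**Figure D3:**
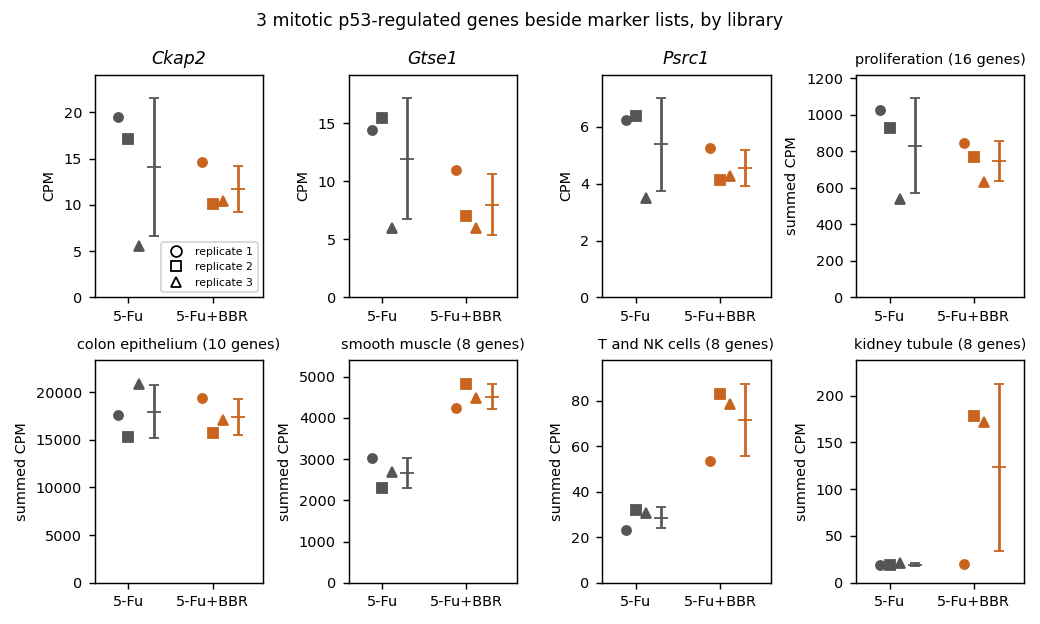
CPM of Ckap2, Gtse1 and Psrc1 and summed CPM of marker lists in each library (points, shaped by replicate), with the mean and SD of each group of 3 (bars). 5-Fu replicate 3 is lowest of its group in the 3 genes and in the proliferation sum (537 CPM), smooth muscle and T and NK cell sums separate the groups, and kidney tubule genes are high only in 5-Fu+BBR replicates 2 and 3.

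Of the 5 genes of repair and nucleotide supply, 3 had negative and 2 positive log2 fold changes, and Ercc5 had an unadjusted p under 0.05. Ercc5 (chromosome 1, 44147744 to 44181260), which encodes the XPG endonuclease of nucleotide excision repair, was at 20.4, 24.9 and 22.9 CPM in 5-Fu and at 16.7, 18.7 and 18.6 CPM in 5-Fu+BBR, without overlap. Its log2 fold change was -0.34 ± 0.13 (edgeR adjusted p 0.283). Xpc (chromosome 6, 91489305 to 91515888), whose product recognises distorted DNA in the same pathway, was at 17.5, 18.5 and 23 CPM against 15.4, 16.4 and 16.4 CPM. The groups were again apart, though narrowly, and the log2 fold change was -0.29 ± 0.15 (edgeR adjusted p 0.391). Ddb2 (chromosome 2, 91211572 to 91236960), another damage sensor of that pathway, was at 9.06, 11.4 and 12.5 CPM in 5-Fu and at 13.8, 14.1 and 15.1 CPM in 5-Fu+BBR.

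All 3 of the 5-Fu+BBR libraries held more Ddb2 than any 5-Fu library, on both the CPM and the FPKM scale, and the log2 fold change was 0.39 ± 0.17 (edgeR adjusted p 0.325). Ddb2 overlaps Acp2 on the opposite strand, which had a mean of 3032 counts against 723 for Ddb2. The libraries were strand-marked, but the sources used here do not say whether counting used the strand, so the Ddb2 value is uncertain. Polk, a polymerase that copies past damaged bases, had a log2 fold change of -0.25 ± 0.18 with overlapping groups. Rrm2b, the p53-induced small subunit of ribonucleotide reductase that makes deoxynucleotides, had one of 0.26 ± 0.21. Rrm2b overlaps the gene model Gm3362 on the same strand, which had a mean of 2319.8 counts against 653, so its value is uncertain too.

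Among the death receptors and adaptors, Tnfrsf10b (chromosome 14, 69767472 to 69784411), the receptor for the death ligand TRAIL, was at 16, 17.9 and 14.6 CPM in 5-Fu and at 12.4, 9.88 and 10.1 CPM in 5-Fu+BBR. The groups did not overlap on either scale. The ratio of 5-Fu+BBR to 5-Fu was 0.666, with a 95% interval from 0.513 to 0.865, and the log2 fold change was -0.59 ± 0.16 (edgeR adjusted p 0.173). Fas, the receptor for FAS ligand, was level by comparison, with 16.4 to 24.2 CPM in 5-Fu, 18.6 to 24.7 CPM in 5-Fu+BBR and a log2 fold change of 0.03 ± 0.18. Pidd1 (chromosome 7, 141438113 to 141444025), the adaptor of the complex that activates caspase 2, was at 6.66, 6.61 and 4.39 CPM against 7.59, 9.19 and 6.96 CPM. Its groups were apart in CPM but not in FPKM, and the log2 fold change was 0.43 ± 0.24 (edgeR adjusted p 0.431). Eda2r, on the X chromosome, had the lowest log2 fold change of the 32 at -0.74 ± 0.37, but it was low throughout, at 1.19 to 3.25 CPM, and its groups overlapped. The highest value was that of 5-Fu replicate 2, the other 5 libraries lay between 1.19 and 1.87 CPM, and without that library the log2 fold change was -0.33.

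The other genes of cell death and survival differed less. Ei24 (chromosome 9, 36779159 to 36797393), which encodes a membrane protein of the endoplasmic reticulum, was at 135, 131 and 138 CPM in 5-Fu and at 110.0, 119 and 127 CPM in 5-Fu+BBR. The groups were apart in CPM and overlapped in FPKM, and the log2 fold change was -0.18 ± 0.10 (edgeR adjusted p 0.433). Aen, a nuclease of apoptosis, and Perp had log2 fold changes of -0.31 ± 0.18 and -0.05 ± 0.13. Phlda3, an inhibitor of AKT signalling, had one of 0.13 ± 0.26, and the groups of all 3 of these genes overlapped.

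**Figure D4:**
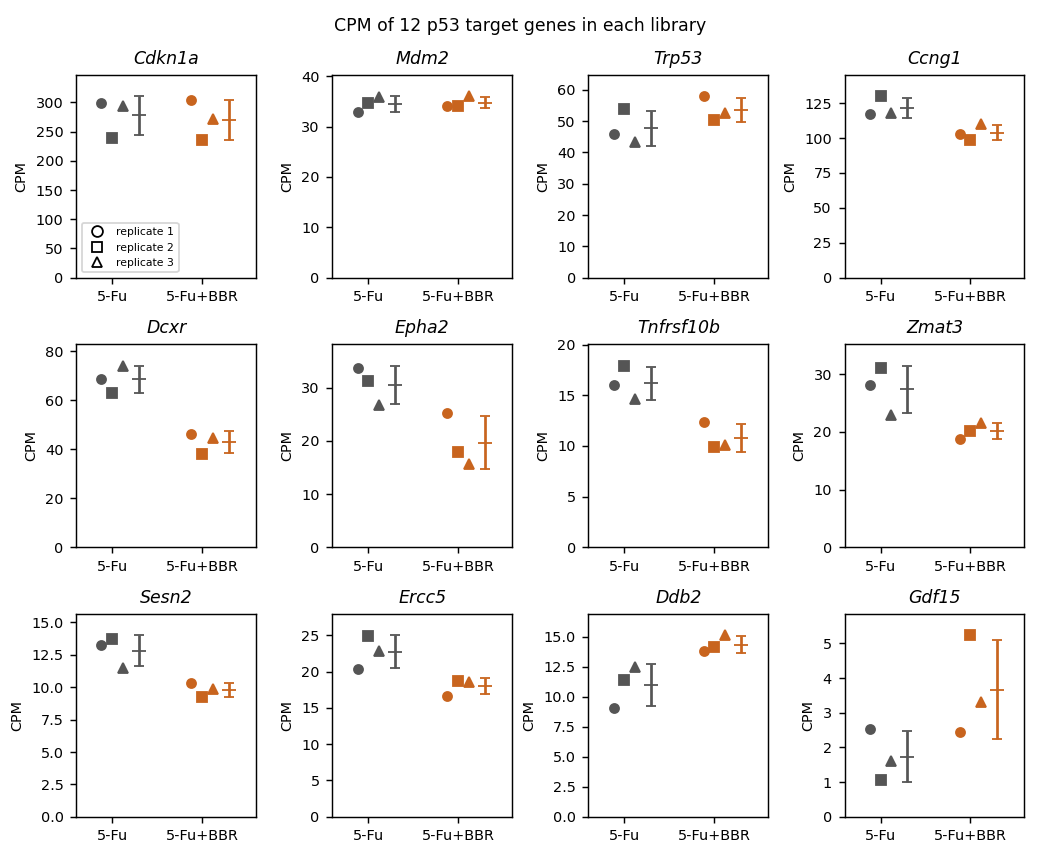
CPM of 12 of the genes in each library (points, shaped by replicate) with the mean and SD of each group of 3 (bars); each vertical axis starts at 0. Cdkn1a, Mdm2 and Trp53 overlap between groups, Dcxr is lower in all 3 5-Fu+BBR libraries, and Gdf15 is spread widely at 1.07 to 5.23 CPM.

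The members with roles in metabolism, stress and signalling held both the most clearly separated gene and the largest positive difference. Dcxr (chromosome 11, 120725399 to 120727281), which encodes a reductase of dicarbonyls and L-xylulose, was at 68.7, 63.1 and 74.1 CPM in 5-Fu and at 46.3, 37.9 and 44.8 CPM in 5-Fu+BBR. The lowest 5-Fu library stood well above the highest 5-Fu+BBR library. In FPKM the group means were 50.3 ± 0.794 and 31.6 ± 2.58 (SD, n = 3). The ratio of 5-Fu+BBR to 5-Fu was 0.627, with a 95% interval from 0.52 to 0.755, and the log2 fold change was -0.67 ± 0.12 (edgeR adjusted p 0.091). Leaving out any 1 library moved it only between -0.73 and -0.59, and with 5-Fu+BBR replicate 1 alone, whose kidney sum was 20.5 CPM, it was -0.58.

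Epha2 (chromosome 4, 141301240 to 141329384), a receptor tyrosine kinase for ephrins at epithelial cell contacts, was at 33.7, 31.3 and 26.7 CPM in 5-Fu and at 25.3, 18 and 15.7 CPM in 5-Fu+BBR. The groups did not overlap, but 5-Fu+BBR replicate 1 lay close to 5-Fu replicate 3, and the log2 fold change was -0.64 ± 0.19 (edgeR adjusted p 0.198). With 5-Fu+BBR replicate 1 alone against 5-Fu it was -0.28. The cells that express Epha2 and Dcxr were not resolved in these bulk libraries.

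Sesn2 (chromosome 4, 132492032 to 132510501) encodes a sestrin, which limits mTORC1 when amino acids are short, and is driven by the integrated stress response as well as by p53. It was at 13.3, 13.7 and 11.5 CPM in 5-Fu and at 10.3, 9.22 and 9.87 CPM in 5-Fu+BBR, without overlap, with a log2 fold change of -0.38 ± 0.16 (edgeR adjusted p 0.294). Its relative Sesn1 had one of 0.06 ± 0.16 and overlapping groups. Of 10 integrated stress response genes, a list that includes Sesn2, 3 were lower at an unadjusted p under 0.05 (30.0%, against 6.08% of all genes tested) and 0 were higher. The other 2 were the amino acid synthesis genes Asns, with a log2 fold change of -0.66 ± 0.24, and Phgdh, with -0.62 ± 0.22, both named after their values were seen. The groups overlapped for both. The transcription factor genes of the response were close to level, with -0.06 ± 0.16 for Atf4, -0.11 ± 0.18 for Atf5 and 0.10 ± 0.15 for Ddit3, as was the phosphatase subunit gene Ppp1r15a with 0.11 ± 0.16. The rest of the list was lower with wide errors and overlapping groups, at -0.70 ± 0.41 for Trib3, -0.65 ± 0.39 for Psat1 and -0.55 ± 0.66 for Chac1. The median of the 10 was -0.47, and the part of this response in the Sesn2 difference was not tested.

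Gdf15 (chromosome 8, 70629393 to 70632456), a secreted stress hormone known to rise after chemotherapy, was the 1 member higher in 5-Fu+BBR at an unadjusted p under 0.05. It was at 2.52, 1.07 and 1.6 CPM in 5-Fu and at 2.45, 5.23 and 3.32 CPM in 5-Fu+BBR. The groups overlapped, since 5-Fu+BBR replicate 1 lay just below 5-Fu replicate 1. The ratio was 2.12 with a wide 95% interval from 1.1 to 4.1, and the edgeR adjusted p was 0.271. The libraries with the higher values, 5-Fu+BBR replicates 2 and 3, were those with kidney tubule genes, and with replicate 1 alone the log2 fold change was 0.49. Its unadjusted p was no longer under 0.05 without 5-Fu+BBR replicate 2 (0.74), 5-Fu replicate 2 (0.84) or 5-Fu replicate 3 (1.04), with the log2 fold changes given in parentheses. The same held in a fit of all libraries with the replicate number added as a block. Ak1, an adenylate kinase, and Ddit4l had log2 fold changes of -0.08 ± 0.24 and -0.04 ± 0.38 with overlapping groups.

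A further list of 43 p53 pathway genes, of which 42 were in the table and 40 tested, held the upstream kinases, cofactors and other targets. By edgeR 0 of the 40 passed an adjusted p under 0.05, and at an unadjusted p under 0.05 4 were higher (against 9.48% of all genes tested) and 4 lower (against 6.08%). Apaf1, the scaffold of the apoptosome, was at 80.1, 85.9 and 57.3 CPM in 5-Fu and at 50.5, 47.3 and 45.9 CPM in 5-Fu+BBR, with a log2 fold change of -0.64 ± 0.15 (edgeR adjusted p 0.146). Its groups did not overlap. The others lower were Bax, which opens the outer mitochondrial membrane, with -0.39 ± 0.15, Tigar, a regulator of glycolysis, with -0.34 ± 0.14, and the thiamine transporter gene Slc19a2, with -0.54 ± 0.23. Those higher were the metalloreductase gene Steap3 (0.42 ± 0.16), Gadd45a of growth arrest and repair (0.49 ± 0.20), Pml, which organises nuclear bodies and is also induced by interferon (1.13 ± 0.43), and the phosphatase gene Ptp4a3 (0.49 ± 0.20). The p53 targets Bbc3 and Pmaip1, which start mitochondrial apoptosis, had log2 fold changes of -0.08 ± 0.19 and -0.21 ± 0.19. The median of the 40 was -0.06, with 23 below 0 and 17 above.

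By role, the median log2 fold change was 0.08 for p53 and its feedback genes (5 genes), -0.24 for arrest and division (7), -0.25 for repair and nucleotide supply (5), -0.28 for death receptors and adaptors (4), -0.12 for other cell death and survival genes (4) and -0.08 for metabolism, stress and signalling (7). Genes that differed at an unadjusted p under 0.05 were found in 4 of the 6 roles, always next to members whose groups overlapped. Over all 32 members, the median difference of a library from the 5-Fu mean was 0.04, 0.09 and -0.08 in the 5-Fu libraries and -0.11, -0.20 and -0.03 in 5-Fu+BBR, on a log2 scale with a pseudocount of 0.5 CPM. 5-Fu+BBR replicate 3 thus lay within the 5-Fu range and replicates 1 and 2 below it, replicate 2 the farther.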

How the data were processed

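Per the labels' protocols, polyadenylated RNA of whole colon was made into strand-marked libraries with molecular identifiers and sequenced as paired reads. Tools listed in the submitters' processing notes, without their roles, are HISAT2 2.0.4, StringTie 1.3.4d, cutadapt 1.9, edgeR, DESeq2 and UMI-tools, and the build is GRCm38. An annotation version was not given in the sources used here. The authors deposited estimated counts, as whole numbers, and FPKM per library. In single-transcript genes above 50 counts, 92.1% to 93.2% of deposited counts lay within 2% of FPKM times length and a library constant, and genes with 4 counts outnumbered those with 3 or 5, so 1 fragment can be worth about 4 counts and the precision of low counts is overstated.

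Samples were grouped by the treatment label. Counts were filtered with filterByExpr, scaled by TMM and tested in R 4.3.3 by the robust quasi-likelihood method of edgeR 4.0.16, two-sided, without covariates, with Benjamini-Hochberg adjustment over 20101 genes. The biological coefficient of variation was 0.296. SEs and 95% intervals come from that fit. CPM use the TMM-scaled library size. Alternatives used limma 3.58.1, DESeq2 1.42.0, other filters and scalings, counts divided by 4, a replicate block, an adjusted p of 0.1 and leaving libraries out. Chi-square values per gene between libraries of a group were 73.9 to 136, so none agreed within sampling noise. Promoters came from RefSeq tables of GRCm38.p6 and 7 members had no entry. The steps were tested on simulated data. Figures were made in matplotlib 3.10.9 and pandas 2.3.3 under Python 3.11.15.

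The members and gene lists were chosen with earlier results of these data known. Values per library were given for Trp53, Cdkn1a and Mdm2, for members with an unadjusted p under 0.05, for members whose groups did not overlap and for the member of smallest p in each role. Of the other pathway genes, up to 4 of smallest p per direction were named. Ckap2, Gtse1, Psrc1, Plk2, Fas, Eda2r, Bbc3, Pmaip1, Asns, Phgdh, Atf4, Atf5, Ddit3, Ppp1r15a, Trib3, Psat1 and Chac1 were given values outside that rule, after their values were seen. Sequences followed a rule of decamer matches, and those lying inside the gene model were not printed.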

Additional observations from a re-analysis of the deposited data

How the results depend on the processing

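Of the 32 members, 16 kept the direction and side of the threshold in all alternatives, 13 changed sign in at least 1 and 3 passed the threshold with DESeq2. The number of genes called, 15, became 1227 with DESeq2, 77 with no filter on low counts, 144 at an adjusted p under 0.1, 0 with 5-Fu+BBR replicate 1 alone, and 0 to 159 when 1 library was left out (0 without 5-Fu replicate 1 or 5-Fu+BBR replicate 2, 17 without 5-Fu+BBR replicate 3, 53 without 5-Fu replicate 3, 54 without 5-Fu+BBR replicate 1 and 159 without 5-Fu replicate 2). Members called became 3 with DESeq2 (adjusted p 0.000379 for Dcxr, 0.0209 for Tnfrsf10b and 0.0485 for Epha2, against 0.0544 to 0.755, 0.139 to 0.866 and 0.0986 to 0.875 over the other alternatives) and 1 (Dcxr) at an adjusted p under 0.1, and stayed at 0 in the other alternatives. Members higher at an unadjusted p under 0.05 became 2 with DESeq2, limma-voom and limma-trend with either pseudocount, and 0 to 1 with a library left out. The share of all genes higher by that measure was 10.3% with DESeq2, 10.1% with limma-voom and 8.87% and 8.68% with limma-trend at pseudocounts of 1 and 0.1. With a library left out it was 5.7% to 10.6%. Members lower became 3 with limma-trend and 3 to 7 with a library left out, with 3 when 5-Fu replicate 2 or 5-Fu+BBR replicate 1 was the one left out. The share of all genes lower by that measure was 6.34% and 6.37% with limma-trend at pseudocounts of 1 and 0.1. With a library left out it was 3.07% to 7.34%. The members' median ranged from -0.17 to -0.05 with a library left out. The cause of these shifts was not tested.

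With 5-Fu+BBR replicate 1 alone the log2 fold change had the other sign for Mdm2 (-0.03), Trp53inp1 (-0.10), Cdkn1a (0.12), Btg2 (-0.13), Ckap2 (0.04), Rrm2b (-0.04), Fas (-0.17), Perp (0.10), Phlda3 (-0.38), Sesn1 (-0.11) and Ddit4l (0.10). With a library left out the ranges crossed 0 for Mdm2 (-0.03 to 0.05), Trp53inp1 (-0.06 to 0.15), Cdkn1a (-0.13 to 0.05), Btg2 (-0.14 to 0.17), Plk2 (-0.42 to 0.29), Ckap2 (-0.64 to 0.04), Fas (-0.12 to 0.15), Perp (-0.14 to 0.04), Phlda3 (-0.04 to 0.33), Sesn1 (-0.04 to 0.17), Ddit4l (-0.26 to 0.23) and Ak1 (-0.25 to 0.07). For Gdf15 the range was 0.74 to 1.46, for Epha2 -0.86 to -0.49 and for Tnfrsf10b -0.70 to -0.51. Eda2r and Ddit4l were below the FPKM filter and have no limma-trend value.

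Same-numbered libraries of the groups deviated together with correlations of 0.058, 0.024 and 0.123, and 5-Fu+BBR replicate 1 correlated best with 5-Fu replicate 2 (0.104). With 3 libraries per group such values cannot tell whether same-numbered libraries were paired or shared a batch, and the labels do not say. A replicate block gave 113 genes called and 0 members, with 1 member higher and 6 lower at an unadjusted p under 0.05 and a median of -0.09. Of all genes tested 9.89% were higher and 6.05% lower by that measure. The member higher was Ddb2, and those lower were Aen, Dcxr, Epha2, Ercc5, Tnfrsf10b and Zmat3. Gdf15 and Sesn2 were thus no longer among them. Precision is limited by the 3 libraries per group, and low genes such as Eda2r, Ddit4l and Gdf15 rest on few fragments.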
